A study of Homo sapiens with 18 samples.

Results

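SNAI1 and 9 other genes of the epithelial-mesenchymal transition (EMT) are described here: SNAI2, ZEB1, ZEB2, TWIST1, CDH1, CDH2, VIM, TJP1 and GRHL2. They were chosen by a list of symbols, matched to the Ensembl identifiers of the table, and all 10 were found among the 63677 genes of the count table. RNA-seq covered 18 libraries of NCI-H1299, an established human lung cancer line labelled as lung adenocarcinoma and grown in low-glucose DMEM with serum. Each of 6 groups had 3 libraries, named by the replicate letters a, b and c. In 4 groups the cells overexpressed human Flag-tagged TBX2, human HA-tagged TBX3, human Flag-tagged TBX4 or mouse HA-tagged Tbx5 from a plasmid, written below as TBX2, TBX3, TBX4 and TBX5. The 3 EV libraries came from cells given the empty vector, and the 3 libraries labelled Ctl came from cells whose treatment the labels do not state. Transfection with a lipid reagent was transient and reaches only some cells, so each library mixes cells with and without plasmid, and the mouse Tbx5 transcript was counted only where its reads aligned to the human gene. The title of TBX4 replicate c has the number of the TBX4 libraries and ends in TBX5. This library held 85197 counts of TBX4 and 1 count of TBX5, and it was kept as TBX4.

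Total counts ran from 7365221 to 11743179 over the libraries (median 9167758). Levels are given as CPM, read counts scaled to a common depth with TMM factors, a scaling that sets the libraries to a common scale through the bulk of the genes. A level of 3 counts, taken as the floor of detection, equalled 0.191 CPM in EV replicate c to 0.595 CPM in TBX5 replicate b. Floors cover counting error only, since without molecular identifiers 1 molecule can give several reads. One gene without a symbol, ENSG00000266658, took 10.7% of the counts in TBX3 replicate c and 53.5% in TBX5 replicate b, and its share is set beside TJP1, ZEB2 and ZEB1 below.

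In the EMT, epithelial cells give up the junctions and polarity that hold them in a sheet and acquire the cytoskeleton, matrix and motility of mesenchymal cells. Transcription factors of the Snail, ZEB and Twist families drive this switch, in large part by binding E-boxes in the DNA and repressing epithelial genes such as CDH1, while GRHL2 keeps epithelial genes active. In lung cancer the program is known for its association with invasion, and TBX2 and TBX3 are known repressors of CDH1.

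The control cells expressed VIM, CDH2 and ZEB genes beside the keratins KRT18 (61.2 to 75.8 CPM) and KRT8 (33.3 to 40.9 CPM). Per kilobase of transcript, the 6 control libraries held VIM, the intermediate filament vimentin of mesenchymal cells, at a level of 417 ± 18.8 CPM per kilobase (SD, n = 6). TJP1, which encodes the tight junction scaffold ZO-1, followed at a level of 23.9 ± 1.66 CPM per kilobase (SD, n = 6). CDH2, which encodes N-cadherin, and the E-box repressor ZEB1 stood at levels of 7.30 ± 0.206 and 7.29 ± 0.319 CPM per kilobase (SD, n = 6) and did not differ beyond their spread. Below them came ZEB2, a repressor of the same family, at a level of 3.77 ± 0.314, the basic helix-loop-helix factor TWIST1 at 1.71 ± 0.169 and the zinc finger repressor SNAI1 at 0.419 ± 0.224 CPM per kilobase (SD, n = 6). The steps from VIM to TJP1, from ZEB1 to ZEB2, from ZEB2 to TWIST1 and from TWIST1 to SNAI1 were each larger than both spreads.

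Expression of the 3 remaining genes was at or near 0 in every group. CDH1, which encodes the epithelial adhesion molecule E-cadherin, had 0 to 2 counts in a library and 7 counts in all 18, with 0 in all 3 EV and all 3 TBX4 libraries. GRHL2 had 0 or 1 count in a library and 3 counts in all. SNAI2, the closest relative of SNAI1, had 19 counts in all and at most 5, in TBX4 replicate b. These 3 genes did not pass the filter on low counts (above 5 in 10 or more of the 18 libraries), which left 15576 genes and 7 of the 10 members for testing. With 2 counts of CDH1 in the 6 controls together, a fall with TBX2 or TBX3 was not detectable at this depth. Without the filter, edgeR gave CDH1 an adjusted p of 0.93 with TBX2 and 0.766 with TBX3, and the smallest value for any of the 3 genes was that of SNAI2 with TBX4 (0.145).

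The label of lung adenocarcinoma was checked against 8 markers of lung epithelium and its carcinoma. NKX2-1, the lineage factor of the lung epithelium, had at most 4 counts in a library, the surfactant genes SFTPA1 and SFTPC at most 2 and 1, and the epithelial adhesion gene EPCAM at most 3. The 8 markers summed to 2.25 to 6.32 CPM, with MUC1 the most abundant, and the TBX2 libraries (4.38 to 6.32 CPM) lay at the upper end, where KRT7 was raised. The 5 fibroblast markers summed to 0.322 to 0.793 CPM in the controls and to 0.805 to 1.62 CPM with TBX2. Their median sums were 0.917, 0.934 and 0.999 CPM with TBX3, TBX4 and TBX5, beside 0.522 CPM in the controls, with overlapping ranges. DCN was the most abundant at 7 counts or fewer, and LUM was at 0 in 14 libraries. Endothelial markers (3 of 4 matched) summed to 0.0638 to 0.457 CPM in the controls and 0.649 to 0.804 CPM with TBX2, with CLDN5 the most abundant and CDH5 at 0 in 16 libraries. The 4 leukocyte markers summed to at most 1.21 CPM, with 0 to 0.621 CPM in the controls and 0.524 to 1.21 CPM with TBX3. CD14 was the most abundant and CD3E was at 0 in 16 libraries. The part of these marker sums in the results was not tested. In bulk RNA, fewer cells of a type and less RNA per cell cannot be told apart.

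Promoter sequences were available for 5 of the 10 members, ZEB1, ZEB2, CDH2, VIM and TJP1, and these are also the tested members other than SNAI1 that passed the test in at least 1 TBX comparison. The 250 bases before the most upstream start of each are shown so that the E-boxes and T-box cores near genes that rose and fell can be read directly. They come from RefSeq, build GRCh38.p14: ZEB1 from chr10:31318167-31318416 (+), ZEB2 from chr2:144520120-144520369 (-), CDH2 from chr18:28177131-28177380 (-), VIM from chr10:17227991-17228240 (+) and TJP1 from chr15:29969050-29969299 (-). Capitals mark the E-box CAGGTG, read as CACCTG on the other strand, and the T-box core GTGTGA, read as TCACAC on the other strand.
ZEB1: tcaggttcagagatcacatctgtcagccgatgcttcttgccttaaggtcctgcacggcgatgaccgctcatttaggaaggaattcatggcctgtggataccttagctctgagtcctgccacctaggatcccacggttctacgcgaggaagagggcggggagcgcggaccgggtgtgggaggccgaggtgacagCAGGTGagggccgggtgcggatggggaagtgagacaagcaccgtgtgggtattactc
ZEB2: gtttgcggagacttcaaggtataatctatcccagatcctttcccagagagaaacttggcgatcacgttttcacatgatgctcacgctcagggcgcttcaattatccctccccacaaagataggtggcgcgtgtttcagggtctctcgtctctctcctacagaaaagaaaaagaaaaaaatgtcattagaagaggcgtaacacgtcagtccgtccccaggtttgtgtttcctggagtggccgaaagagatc
CDH2: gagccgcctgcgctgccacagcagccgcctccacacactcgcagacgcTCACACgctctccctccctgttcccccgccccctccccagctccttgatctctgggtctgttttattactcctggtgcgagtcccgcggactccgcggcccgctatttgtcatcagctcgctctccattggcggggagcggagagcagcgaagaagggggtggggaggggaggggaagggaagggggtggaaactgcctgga
VIM: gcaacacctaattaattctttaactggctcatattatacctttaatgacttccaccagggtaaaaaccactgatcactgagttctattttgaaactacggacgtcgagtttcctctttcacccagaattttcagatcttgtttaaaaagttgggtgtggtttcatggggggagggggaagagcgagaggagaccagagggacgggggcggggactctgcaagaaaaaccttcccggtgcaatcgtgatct
TJP1: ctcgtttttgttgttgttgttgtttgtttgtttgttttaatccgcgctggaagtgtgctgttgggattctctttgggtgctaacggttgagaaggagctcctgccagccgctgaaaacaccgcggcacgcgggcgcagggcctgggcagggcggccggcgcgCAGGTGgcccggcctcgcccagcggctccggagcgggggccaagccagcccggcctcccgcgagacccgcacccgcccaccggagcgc

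These windows hold 1 E-box in ZEB1, 1 E-box in TJP1 and 1 T-box core in CDH2, and neither motif in ZEB2 and VIM. Over all 15 promoters of the 5 genes, 3 had an E-box (ZEB1 at the first and the third of 7 starts, TJP1 at the first of 4) and 2 had a T-box core (ZEB1 at the seventh start, CDH2 at the first of 2). Of the 35116 promoters in the table, 17.5% held an E-box and 9.9% a T-box core in the same window. A match describes the letters only, and a window without one says nothing about binding.

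Each TBX was compared with the 6 pooled controls (3 EV and 3 Ctl) with the quasi-likelihood test of edgeR, and a gene was called at a false-discovery rate of 0.1 over the 15576 tested genes. The 4 comparisons share these 6 libraries, and the p-values measure the spread between libraries, since nothing in the labels says that replicates were separate cultures. With TBX2, 2 of the 7 tested members were up-regulated (SNAI1, ZEB1), beside 17.0% of all tested genes, and 3 were down-regulated (CDH2, VIM, TJP1), beside 15.6%. With TBX3, 3 were up-regulated (SNAI1, ZEB1, ZEB2), beside 8.47%, and 1 was down-regulated (VIM), beside 6.40%. With TBX4, SNAI1 alone of the 7 was up-regulated, beside 6.97%, and 3 were down-regulated (ZEB2, CDH2, TJP1), beside 6.07%, although ZEB2 and CDH2 had the opposite sign when scaled by library totals. With TBX5, SNAI1 was up-regulated, beside 6.55%, and CDH2 down-regulated, beside 6.12%. The 3 EV libraries against the 3 Ctl libraries gave 0 of 7 higher, beside 0.282% of all genes, and 0 lower, beside 0.103%, with edgeR, where SNAI1 was the 1 member at an unadjusted p under 0.05 and DESeq2 called 0. SNAI1 was thus the member up-regulated with each of the 4 TBX plasmids against the pooled controls. Against the 3 EV libraries alone it was called with TBX4 only, and no list-wide test was made.

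**Figure D1:**
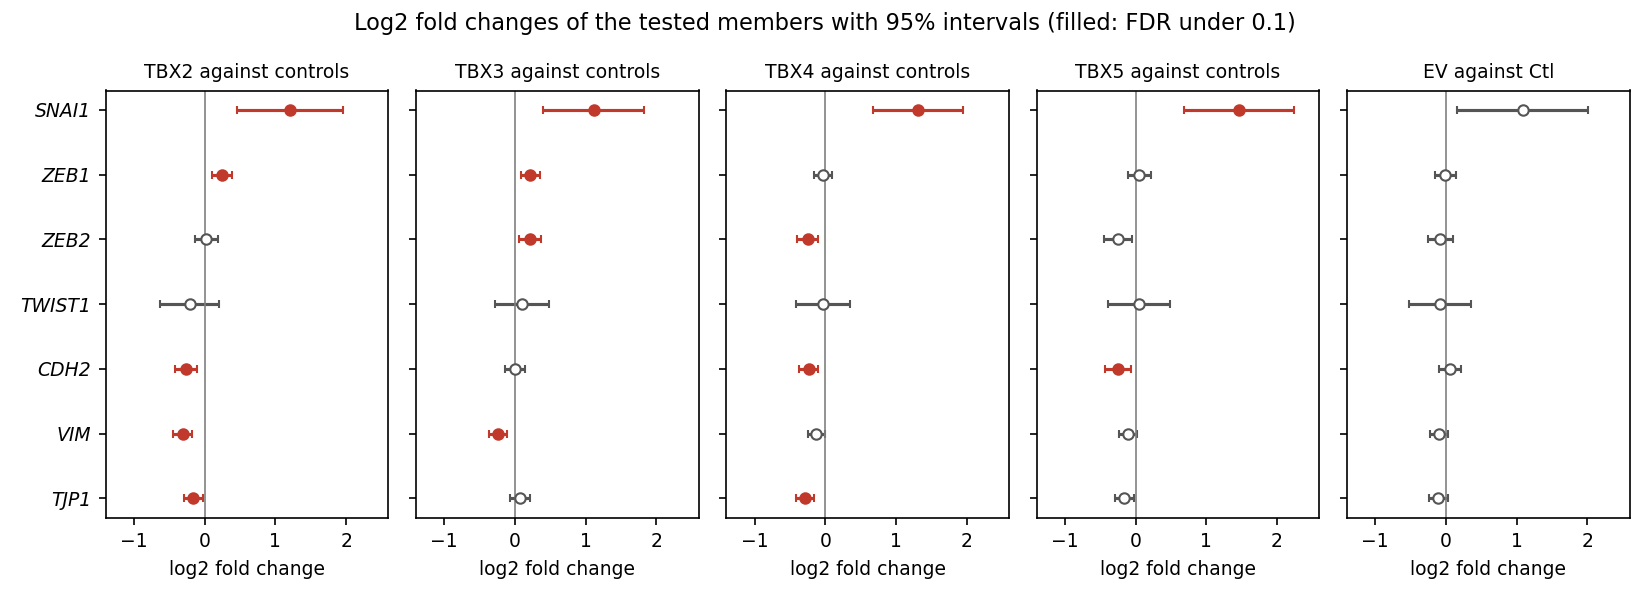
Log2 fold changes (horizontal axis) of the 7 tested members for each TBX against the 6 controls and for EV against Ctl, with 95% confidence intervals from edgeR and filled points for genes called at a false-discovery rate of 0.1. SNAI1 lies between 1.11 and 1.46 with the 4 TBX plasmids and at 1.08, with an open point, for EV against Ctl; the changes of ZEB2 and CDH2 with TBX4 (-0.25 and -0.23) turn to 0.02 and 0.03 under scaling by library totals.

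When library totals replaced the TMM factors, they moved the median of all tested genes to 0.25 with TBX4, -0.31 with TBX5, -0.08 with TBX3, 0.01 with TBX2 and 0.20 for EV against Ctl, on the log2 scale. Relative to these medians, SNAI1 stood 1.20, 1.11, 1.31 and 1.45 above in the order TBX2 to TBX5. ZEB2 and CDH2 with TBX4 had values of 0.02 and 0.03 under library totals, which are -0.23 and -0.23 relative to the median gene. Under that scaling edgeR called SNAI1 with TBX2 and with TBX4 and none of the other members in the 4 comparisons. It called 6.78%, 0.225%, 17.9% and 0.597% of all tested genes with TBX2, TBX3, TBX4 and TBX5. Some lost calls had values about as large or larger: ZEB1, CDH2 and VIM with TBX2 (0.25, -0.26 and -0.30) and VIM with TBX3 (-0.31). Others shrank, with ZEB1 and ZEB2 at 0.13 and 0.14 with TBX3 and TJP1 at -0.02 with TBX4.

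SNAI1 (ENSG00000124216, GRCh37, chromosome 20, 48599517 to 48605423, plus strand) is a zinc finger repressor of CDH1 and an early factor of the EMT. In the Ctl libraries a, b and c its level was 0.196, 0.710 and 0.397 CPM, and in the EV libraries 1.26, 0.966 and 0.766 CPM. With TBX2 the level was 1.38, 2.11 and 1.30 CPM, and with TBX3 1.18, 1.66 and 1.69 CPM. With TBX4 it was 1.60, 1.95 and 1.76 CPM, and with TBX5 1.55, 1.79 and 2.79 CPM. Thus the Ctl libraries were lowest and the EV libraries next, all libraries with TBX2, TBX4 or TBX5 lay above every control, and among those with TBX3 replicate a lay below EV replicate a. The levels rest on few reads, 2 to 12 counts in a control and 8 to 25 in a TBX library, and Ctl replicate a was below its floor of 0.294 CPM.

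**Figure D2:**
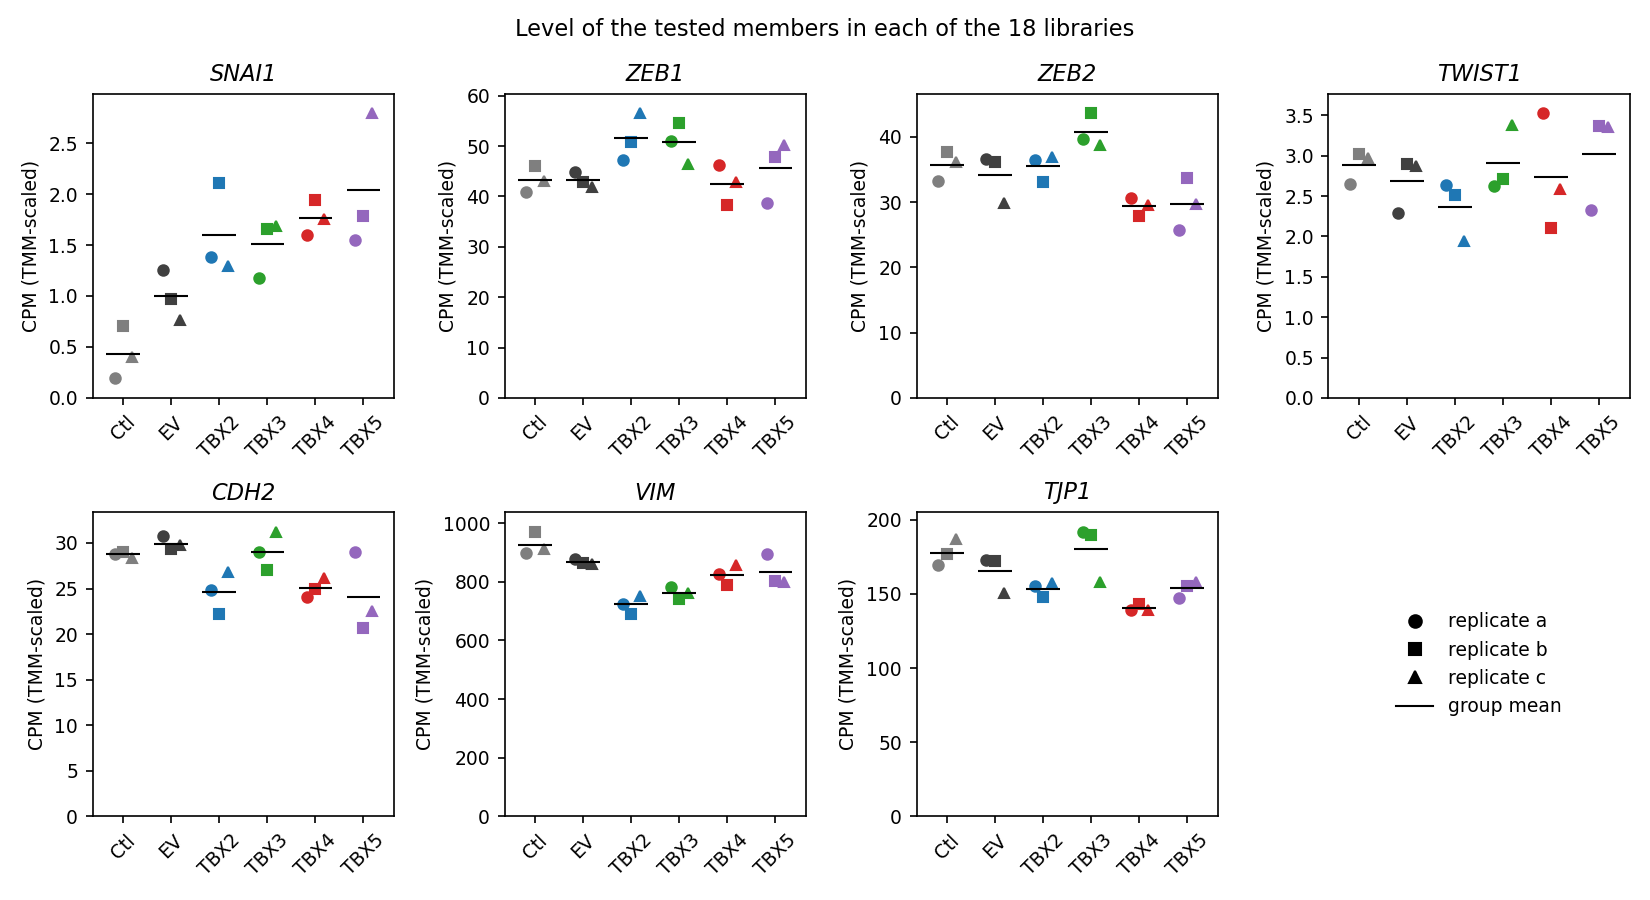
Level of the 7 tested members in CPM (vertical axis, from 0) in each of the 18 libraries by group, with a symbol for each replicate letter and a line at the group mean. SNAI1 is at 0.196 to 1.26 CPM in the 6 controls and at 1.18 to 2.79 CPM in the 12 libraries with a TBX plasmid, while VIM is lowest with TBX2 (692 to 752 CPM).

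The mean of SNAI1 was 0.715 ± 0.382 CPM in the controls (SD, n = 6), while TBX2 had 1.60 ± 0.449, TBX3 1.51 ± 0.286, TBX4 1.77 ± 0.172 and TBX5 2.04 ± 0.658 (SD, n = 3 each). With edgeR these were log2 fold changes of 1.21 for TBX2 (SE 0.36, adjusted p 0.0158), 1.11 for TBX3 (SE 0.34, adjusted p 0.0389), 1.31 for TBX4 (SE 0.31, adjusted p 0.00754) and 1.46 for TBX5 (SE 0.38, adjusted p 0.0173). SNAI1 was above the control mean in 3 of 3 libraries of each TBX. The call was lost with TBX2 without TBX2 replicate b (adjusted p 0.145), with TBX3 without TBX3 replicate b (0.102) or c (0.205) and with TBX5 without TBX5 replicate c (0.132), whereas with TBX4 it held in 9 of 9 fits with a library left out. Under library totals edgeR no longer called it with TBX3 (adjusted p 0.999) and TBX5 (0.207), and DESeq2 gave 0.103 with TBX3.

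The kind of control changed the size of the SNAI1 difference. SNAI1 was higher in EV than in Ctl by 1.08 (SE 0.45), in 3 of 3 libraries without overlap, but its adjusted p of 0.47 did not pass, and its unadjusted p in edgeR was 0.0239. Against the 3 Ctl libraries alone, the log2 fold change was 1.86 for TBX2, 1.76 for TBX3, 1.97 for TBX4 and 2.12 for TBX5 (adjusted p of 0.00612, 0.0125, 0.0027 and 0.0123 in edgeR). Against the 3 EV libraries alone, it was 0.78, 0.68, 0.88 and 1.03 (adjusted p of 0.117, 0.222, 0.0834 and 0.1), and TBX4 alone was called. So the comparison with cells that also received a plasmid was the smaller in all 4 groups, and how far transfection itself raised SNAI1 cannot be told apart from the unstated treatment of the Ctl cells.

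**Figure D3:**
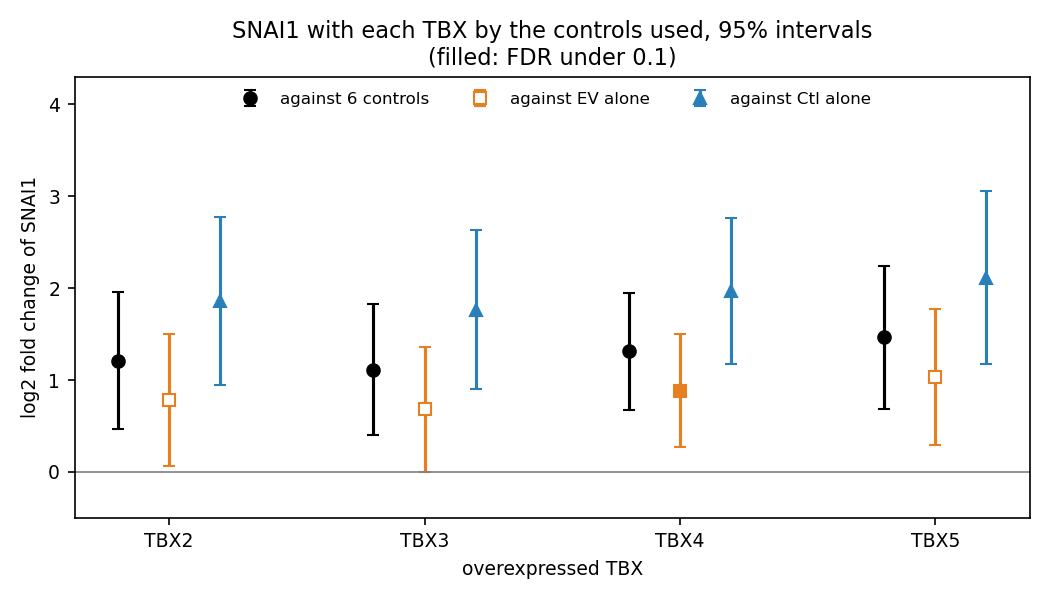
Log2 fold change of SNAI1 (vertical axis) with each TBX against the 6 controls, the 3 EV libraries alone or the 3 Ctl libraries alone, with 95% confidence intervals and filled symbols for genes called by edgeR at a false-discovery rate of 0.1. Values against EV alone (0.68 to 1.03) lie below those against Ctl alone (1.76 to 2.12), and TBX4 is the group called against EV alone.

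ZEB1 and ZEB2 are zinc finger and homeodomain repressors that hold cells in the mesenchymal state. ZEB1 (ENSG00000148516, GRCh37, chromosome 10, 31607424 to 31818742, plus strand) was at 40.9 to 46.0 CPM in the controls, with a median of 43.0 CPM. With TBX2 it reached 47.2, 50.9 and 56.5 CPM, and with TBX3 51.1, 54.6 and 46.5 CPM. All 6 of these libraries lay above every control. ZEB1 ranged from 38.3 to 46.2 CPM with TBX4 and from 38.6 to 50.2 CPM with TBX5, both overlapping the controls. In edgeR it rose by a log2 fold change of 0.25 with TBX2 (SE 0.07, adjusted p 0.00949) and 0.22 with TBX3 (SE 0.07, adjusted p 0.031), where leaving out TBX3 replicate a (0.107) or b (0.185) ended the call. The values with TBX4 (-0.03) and TBX5 (0.05) did not pass, and under library totals both took the other sign. The call with TBX3 was also lost against Ctl alone (adjusted p 0.116) and without a filter on low counts (0.109).

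ZEB2 (ENSG00000169554, GRCh37, chromosome 2, 145121931 to 145278624, minus strand) was at 29.8 to 37.6 CPM in the controls, with a median of 36.1 CPM. With TBX3 it was 39.7, 43.6 and 38.7 CPM, and with TBX4 30.6, 27.9 and 29.5 CPM. The TBX3 libraries lay above every control, and the TBX4 libraries lay below all controls but EV replicate c, the lowest at 29.8 CPM. With TBX2 it was 36.5, 33.1 and 36.9 CPM, and with TBX5 25.7, 33.7 and 29.8 CPM, both within or overlapping the controls. In edgeR, ZEB2 rose with TBX3 (log2 fold change 0.22, SE 0.07, adjusted p 0.0645) and fell with TBX4 (-0.25, SE 0.07, adjusted p 0.0323), but the fall turned to 0.02 under library totals. With TBX5 the value was also -0.25, with a wider error (SE 0.09, adjusted p 0.103), and did not pass. It did pass without TBX5 replicate b (0.0611) or EV replicate c (0.0385). It also passed without the filter on low counts (0.0359) and in 1 fit of all libraries (0.0772). Without TBX5 replicate a its adjusted p was 0.509, and with a library left out the value ran from -0.34 to -0.13. The rise with TBX3 was lost in 4 of 9 fits with a library left out (TBX3 replicate a 0.126, TBX3 replicate b 0.254, Ctl replicate a 0.101, EV replicate c 0.151), with DESeq2 (0.142), without the filter on low counts (0.147) and against Ctl alone (0.202), and the fall with TBX4 was lost without TBX4 replicate b (0.179) and against EV alone (0.146).

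TWIST1 (ENSG00000122691, GRCh37, chromosome 7, 19060614 to 19157259, minus strand), a factor of mesoderm formation that can induce the EMT, had 12 to 48 counts per library. Its level was 2.28 to 3.02 CPM in the controls, 1.95 to 2.64 with TBX2, 2.62 to 3.37 with TBX3, 2.10 to 3.52 with TBX4 and 2.33 to 3.37 with TBX5, so that each TBX group overlapped the controls. Its log2 fold changes ran from -0.21 with TBX2 to 0.10 with TBX3, with SEs of 0.18 to 0.21, and none was called. The 95% interval with TBX2 reached from -0.63 to 0.20, so true changes within this range remain compatible with the data.

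TJP1 (ENSG00000104067, GRCh37, chromosome 15, 29991571 to 30261118, minus strand) was the 1 epithelial member expressed in these cells, and ZO-1 also serves cell contacts outside epithelia. Its level was 169.7, 177 and 187 CPM in the Ctl libraries and 173, 172 and 150.5 CPM in the EV libraries. With TBX4 it was 139, 143 and 139 CPM, below every control. With TBX2 it was 155, 148 and 158 CPM and with TBX5 147, 155 and 158 CPM, and in both groups only EV replicate c among the controls reached down to these values. With TBX3 it was 192, 190.1 and 158 CPM, spanning the controls. In edgeR TJP1 fell with TBX4 (log2 fold change -0.29, SE 0.06, adjusted p 0.00234) and with TBX2 (-0.16, SE 0.06, adjusted p 0.0753), and not with TBX5 (-0.16, adjusted p 0.134) or TBX3 (0.07, adjusted p 0.608). The call with TBX4 held in 9 of 9 fits with a library left out, but under library totals the value was -0.02 (adjusted p 0.939), or -0.27 relative to the median gene, and with the ENSG00000266658 share in the fit it was -0.15 (adjusted p 0.22). With TBX5, TJP1 was called without EV replicate c (0.0418), without the filter on low counts (0.075) and against Ctl alone (0.0813). That with TBX2 held in 2 of 9, without Ctl replicate a or EV replicate c, and was lost without TBX2 replicate a (0.136), b (0.205) or c (0.11), Ctl replicate b (0.117) or c (0.159) and EV replicate a (0.115) or b (0.108), and against EV alone (0.379).

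CDH2 (ENSG00000170558, GRCh37, chromosome 18, 25512843 to 25757910, minus strand), whose N-cadherin replaces E-cadherin in the cadherin switch of the EMT, was at 28.4 to 30.7 CPM in the controls, with a median of 29.2 CPM. With TBX2 it was 24.8, 22.2 and 26.8 CPM, with TBX4 24.1, 24.9 and 26.2 CPM, and with TBX5 29.0, 20.6 and 22.5 CPM. The libraries with TBX2 and TBX4 lay below every control, and with TBX5 replicate a lay among them. With TBX3 it was 29.0, 27.0 and 31.2 CPM, around the controls. In edgeR CDH2 fell with TBX2 (log2 fold change -0.26, SE 0.08, adjusted p 0.0118), with TBX4 (-0.23, SE 0.07, adjusted p 0.0251) and with TBX5 (-0.25, SE 0.09, adjusted p 0.0818), but under library totals the value with TBX4 was 0.03. The call was lost with TBX2 without TBX2 replicate b (0.12) and with TBX4 without TBX4 replicate a (0.141) or against Ctl alone (0.118). With TBX5 it was lost without TBX5 replicate b (0.37) or c (0.299), Ctl replicate b (0.101) and EV replicate a (0.127), b (0.114) or c (0.12), with DESeq2 (0.149), and against EV alone (0.132) or Ctl alone (0.276).

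VIM (ENSG00000026025, GRCh37, chromosome 10, 17270240 to 17279592, plus strand) was the most abundant member per length. Its level was 897, 969.8 and 913 CPM in the Ctl libraries and 878, 865 and 861 CPM in the EV libraries. With TBX2 it was 726, 692 and 752 CPM, and with TBX3 780.4, 742 and 763 CPM. All 6 of these libraries lay below every control. With TBX4 it was 826, 788 and 856 CPM, also below every control, and with TBX5 894, 804 and 798 CPM, which overlapped them. In edgeR VIM fell with TBX2 (log2 fold change -0.31, SE 0.07, adjusted p 0.00103) and with TBX3 (-0.24, SE 0.06, adjusted p 0.014), in 9 of 9 fits with a library left out for each. The values with TBX4 (-0.13, adjusted p 0.173) and TBX5 (-0.11, adjusted p 0.297) did not pass, and that with TBX4 was 0.13 under library totals, but against Ctl alone the TBX4 value was called (-0.17, adjusted p 0.09). Of the exon bases of VIM, 24.6% are shared with antisense genes, among them VIM-AS1 with 7 to 29 counts.

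The TBX groups were also compared with each other, in 1 edgeR fit of all 18 libraries. Counts of the plasmid gene in its own group were 27704 to 47916 for TBX2, 135416 to 320890 for TBX3 and 85197 to 109159 for TBX4. TBX5 held 1161 to 1302 counts with the mouse plasmid, counted only where reads aligned to the human gene. The part of these unequal levels in the differences between TBX groups was not tested. Between TBX2 and TBX3, 2 of 7 members were called, beside 15.5% of all genes in either direction. CDH2 (-0.27, SE 0.10, adjusted p 0.0765) and TJP1 (-0.23, SE 0.07, adjusted p 0.0429) were lower with TBX2. Between TBX2 and TBX4, 3 were called, beside 12.3%: ZEB1 (0.27, adjusted p 0.0578) and ZEB2 (0.27, adjusted p 0.0714) were higher with TBX2 and VIM (-0.19, adjusted p 0.0851) was lower. Between TBX2 and TBX5, 2 were called, beside 12.1%, with ZEB2 higher (0.27, adjusted p 0.0975) and VIM lower (-0.20, adjusted p 0.0612) with TBX2. Between TBX3 and TBX4, 2 were called, beside 9.97%, as ZEB2 (0.46, SE 0.09, adjusted p 0.00177) and TJP1 (0.35, SE 0.07, adjusted p 0.0029) were higher with TBX3. Between TBX3 and TBX5, 2 were called, beside 7.41%, again ZEB2 (0.47, SE 0.10, adjusted p 0.004) and TJP1 (0.23, SE 0.07, adjusted p 0.0752), both higher with TBX3. Between TBX4 and TBX5, edgeR called 0 of 7, beside 0.539%, with 0 at an unadjusted p under 0.05 and 0 called by DESeq2, but under library totals it called ZEB2 (0.58, adjusted p 0.093) and CDH2 (0.57, adjusted p 0.0963) higher with TBX4, beside 41.8% of all tested genes and a median of 0.57.

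These direct differences depended on the scaling and on single libraries. Under library totals VIM between TBX2 and TBX5 (0.09) and TJP1 between TBX3 and TBX4 (-0.01) took the other sign, and the median of all tested genes moved to 0.32 and -0.34 in these comparisons. Relative to the median they were -0.22 and 0.33. Between TBX2 and TBX4, ZEB1 and ZEB2 were both 0.02 under library totals (0.27 relative to the median). ZEB2 between TBX3 and TBX4 was 0.12 (0.46 relative to the median). With that scaling edgeR called none of the differences above other than those of TBX4 from TBX5. It called 1.05%, 0.488% and 2.69% of all tested genes for TBX2 against TBX3, TBX4 and TBX5. For TBX3 against TBX4 and TBX5 it called 0.706% and 0.218%. The differences of ZEB2 between TBX3 and TBX4 and between TBX3 and TBX5, and that of TJP1 between TBX3 and TBX4, held in 18 of 18 fits with a library left out. TJP1 between TBX3 and TBX5 was lost without TBX3 replicate a (0.271) or b (0.255), TBX5 replicate a (0.21), b (0.133) or c (0.116) and Ctl replicate b (0.104). Between TBX2 and TBX3, CDH2 was lost without TBX2 replicate a (0.131) or b (0.296) and TBX3 replicate a (0.129) or c (0.301), and TJP1 without TBX2 replicate b (0.13) and TBX3 replicate a (0.198) or b (0.173).

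The differences of TBX2 from TBX4 and TBX5 also depended on single libraries. Between TBX2 and TBX4, ZEB1 was lost without TBX2 replicate c (0.242) or TBX4 replicate b (0.264), and ZEB2 without TBX2 replicate a (0.195) or c (0.19) and TBX4 replicate a (0.1), b (0.222) or c (0.121). VIM was lost there without TBX2 replicate a (0.149) or b (0.208), TBX4 replicate a (0.177) or c (0.236) and EV replicate a (0.102) or b (0.104). Between TBX2 and TBX5, VIM was lost without TBX2 replicate a (0.112) or b (0.18) and TBX5 replicate a (0.253). ZEB2 was lost there in 12 of 18 fits, those without TBX2 replicate a (0.224) or c (0.203), TBX5 replicate a (0.469) or c (0.165), TBX3 replicate a (0.11), TBX4 replicate a (0.106), b (0.106) or c (0.109), Ctl replicate b (0.112) or c (0.103) and EV replicate a (0.1) or b (0.104). With DESeq2 the call of CDH2 between TBX2 and TBX3 (0.165) and those of ZEB2 between TBX2 and TBX4 (0.124) or TBX5 (0.183) were lost. Without the filter on low counts those of CDH2 between TBX2 and TBX3 (0.102), of ZEB2 between TBX2 and TBX4 (0.161) or TBX5 (0.138) and of VIM between TBX2 and TBX5 (0.145) were lost, and that of ZEB2 between TBX2 and TBX5 also with DESeq2 size factors in edgeR (0.101). With the ENSG00000266658 share in the fit, added after seeing the data, the 3 differences between TBX2 and TBX4 did not pass. They were 0.18 for both ZEB1 (adjusted p 0.237, beside 0.27 without the share) and ZEB2 (0.258, beside 0.27), and VIM was nearly as large at -0.17 (0.103, beside -0.19).

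For SNAI1, the log2 differences between TBX groups ran from -0.35 (TBX3 against TBX5) to 0.10 (TBX2 against TBX3), with SEs of 0.29 to 0.33, and the smallest adjusted p in edgeR was 0.652; under library totals the values of TBX2 and of TBX4 against TBX5 took the other sign. Its 95% interval for TBX3 against TBX5 reached from -1.02 to 0.31, so true differences within this range remain compatible with the data. So among the 7 tested members the direct tests that held without each library were those of ZEB2 and TJP1, both higher with TBX3 than with TBX4, and of ZEB2 between TBX3 and TBX5, with TJP1 at -0.01 between TBX3 and TBX4 under library totals.

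The share of counts taken by ENSG00000266658 was set beside TJP1, ZEB2 and ZEB1. In the libraries with the smallest shares, TBX3 replicate c (10.7%), EV replicate c (12.4%) and TBX4 replicates a, b and c (13.2%, 14.8% and 18.6%), TJP1 was at 158, 150.5, 139, 143 and 139 CPM. The largest shares, in TBX5 replicates b (53.5%) and c (52.7%), stood beside 155 and 158 CPM of TJP1 and 33.7 and 29.8 CPM of ZEB2. Over all 18 libraries the correlation with the log2 share was 0.607 for TJP1 (rank correlation 0.564), 0.473 for ZEB1 (0.507) and 0.374 for ZEB2 (0.313), and for deviations from the group means it was 0.863, 0.657 and 0.641. Within TBX3, EV and TBX5, the library with the smallest share was the lowest of its group for all 3 genes, but this did not hold within Ctl, TBX2 or TBX4. TBX3 replicate c had 158 CPM of TJP1, 38.7 of ZEB2 and 46.5 of ZEB1, EV replicate c had 150.5, 29.8 and 41.8 CPM, and TBX5 replicate a, with 22.5%, had 147, 25.7 and 38.6 CPM. With this share as a covariate in edgeR, added after seeing the data, the TBX4 calls of TJP1 (-0.15, adjusted p 0.22), ZEB2 (-0.11, adjusted p 0.588) and CDH2 (-0.24, adjusted p 0.129) were lost, leaving SNAI1. With TBX5 the same fit called ZEB2 (-0.33, adjusted p 0.0098) and TJP1 (-0.22, adjusted p 0.0124) and no longer CDH2 (-0.21, adjusted p 0.136). The part of this share in the differences was not tested beyond these fits.

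**Figure D4:**
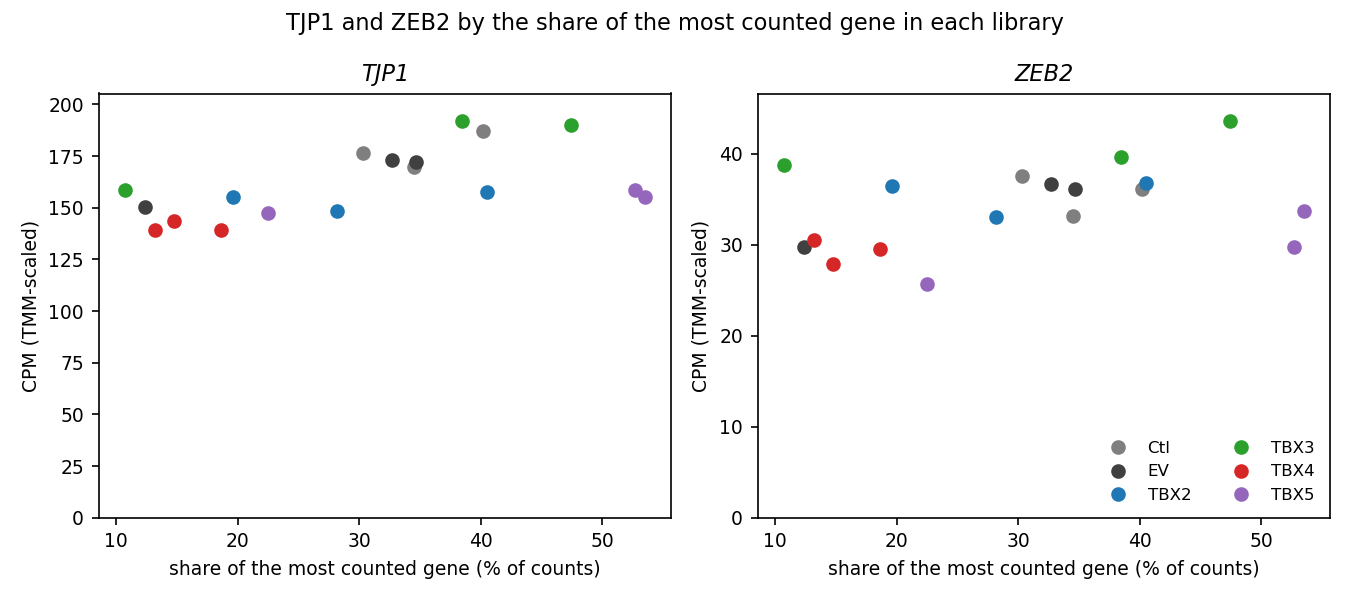
Level of TJP1 and ZEB2 in CPM (vertical axes, from 0) against the percentage of counts held by the most counted gene (horizontal axes) in each of the 18 libraries, with the group shown by colour. The 3 TBX4 libraries (13.2% to 18.6%) and EV replicate c (12.4%) hold 139 to 150.5 CPM of TJP1, while TBX3 replicates a and b (38.5% and 47.4%) hold 192 and 190.1 CPM and TBX5 replicates b and c, with the largest shares (53.5% and 52.7%), hold 155 and 158 CPM; under library totals the fall of ZEB2 with TBX4 turns to 0.02.

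Other genes of the EMT were read from 5 lists. Of 23 EMT transcription factors, 17 were tested. With TBX2, 4 rose (SNAI1, ZEB1, FOXC1 and ETS1) and 4 fell (TCF3, ID1, SOX9 and HMGA2), a called share of 47.1% beside 32.6% of all tested genes, and the list's median log2 fold change was -0.07. With TBX3, 3 rose and 0 fell (17.6% beside 14.9%, median 0.09), and with TBX4, 1 rose and 2 fell (17.6% beside 13.0%, median -0.04), where the falls of ZEB2 and HMGA2 had the other sign under library totals, with 3 called higher and 0 lower. With TBX5, 3 rose (SNAI1, SOX4 and ID2) and 4 fell (HMGA2, ID1, ID3 and TCF3), which is 41.2% beside 12.7%, with a median of 0.05. Under library totals edgeR called 1 higher and 0 lower with TBX2, beside 6.78% of all tested genes. It called 0 with TBX3 and TBX5, beside 0.225% and 0.597%. The 3 called higher with TBX4 stood beside 17.9%, and relative to the median gene ZEB2 and HMGA2 kept their sign there. The medians over all tested genes were -0.01 to 0.00 in these 4 comparisons.

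SOX4, a SOX factor active in several carcinomas, was at 21.6, 22.4 and 17.7 CPM with TBX5 and at 9.41 to 12.6 CPM in the controls. All 3 TBX5 libraries were above every other library, and edgeR gave a log2 fold change of 0.95 (SE 0.11, adjusted p 6.76e-06), with -0.02, 0.11 and 0.00 for TBX2, TBX3 and TBX4. SOX4 also differed directly between TBX5 and each other TBX (adjusted p of 3.33e-06 against TBX2, 4.41e-05 against TBX3 and 3.3e-05 against TBX4). ID2, an inhibitor of basic helix-loop-helix factors, was at 9.10, 8.73 and 8.37 CPM with TBX5 (0.91, SE 0.20, adjusted p 0.005). Within the controls ID2 was lower in EV (3.66, 2.90 and 3.70 CPM) than in Ctl (6.57, 5.41 and 5.85 CPM), by -0.78 in edgeR (SE 0.17, adjusted p 0.0708), a call lost without any 1 of Ctl replicates a (0.194) or b (0.13) and EV replicates a (0.178), b (0.251) or c (0.169). It was also lost with DESeq2 (-0.79, adjusted p 0.413) and with the ENSG00000266658 share in the fit (-0.85, adjusted p 0.146 in edgeR). In both fits the value was no smaller than -0.78 in size.

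Epithelial factors were mostly silent. Of 16 epithelial transcription and splicing factors 5 were tested, and TBX2 and TBX3 each gave 1 of 5 higher (KLF4), beside 32.6% of all tested genes called with TBX2 and 14.9% with TBX3. TBX5 gave 2 of 5 higher (GRHL1, KLF5), beside 12.7%, and 0 were lower in these 3 comparisons. With TBX4 edgeR called 0 of the 5, beside 13.0%, and 1 higher under library totals, and the list's medians were 0.02, 0.28, 0.13 and 0.31 with TBX2, TBX3, TBX4 and TBX5. GRHL1, a relative of GRHL2 with a role in the epidermis, was at 4.66, 6.15 and 4.09 CPM with TBX5 beside 3.00 to 4.23 CPM in the controls, so that replicate c lay within the control range. Its edgeR call (0.55, SE 0.19, adjusted p 0.0771) was lost in 6 of 9 fits with a library left out, named here with the adjusted p without it: TBX5 replicate a (0.126), TBX5 replicate b (0.306), Ctl replicate a (0.102), Ctl replicate c (0.114), EV replicate b (0.115) and EV replicate c (0.125). It was also lost with DESeq2 (0.16), without the filter on low counts (0.138), with the ENSG00000266658 share in the fit (0.119) and against EV alone (0.163) or Ctl alone (0.171). In these fits the value stayed about as large, at 0.50 to 0.55.

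Of 37 epithelial junction, keratin and polarity genes, 24 were tested. With TBX2, 3 rose and 4 fell (29.2% beside 32.6% of all tested genes, median -0.10), with TBX3 1 rose and 3 fell (16.7% beside 14.9%, median -0.09), with TBX4 1 rose and 3 fell (16.7% beside 13.0%, median -0.04), of which CLDN1 and KRT8 had the other sign under library totals, where 3 were called higher and 0 lower. With TBX5, 4 rose and 0 fell (16.7% beside 12.7%, median 0.05), of which KRT8 had the other sign under library totals. There edgeR called 2 higher and 2 lower with TBX2 and 0 with TBX3 or TBX5, beside 6.78%, 0.225% and 0.597% of all tested genes. The 3 called higher with TBX4 stood beside 17.9%. Relative to the median gene, CLDN1 with TBX4 and KRT8 with TBX4 and TBX5 kept their sign. KRT8, a keratin of simple epithelia, was at 33.3 to 40.9 CPM in the controls, 23.1, 22.4 and 19.3 CPM with TBX2, 30.9, 28.7 and 24.2 CPM with TBX3, and 39.7, 44.2 and 52.7 CPM with TBX5. In edgeR KRT8 fell with TBX2 (-0.79, SE 0.08, adjusted p 2.86e-07) and TBX3 (-0.45, SE 0.08, adjusted p 0.000787). It also fell with TBX4 (-0.23, adjusted p 0.0411) and rose with TBX5 (0.26, adjusted p 0.0667). Under library totals these 2 values were 0.03 and -0.07, which are -0.22 and 0.24 relative to the median gene. The call with TBX4 was lost without TBX4 replicate c (0.235), and that with TBX5 without TBX5 replicate b (0.128) or c (0.405) and Ctl replicate a (0.106) or b (0.118). Against Ctl alone the former was not called (0.308), nor the latter against EV alone (0.294). With the ENSG00000266658 share in the fit neither passed (-0.27, adjusted p 0.102, and 0.23, adjusted p 0.106), and in 1 fit of all libraries the TBX4 value did not (-0.23, adjusted p 0.103). KRT18, its partner in the filament, fell with TBX2 (-0.56, adjusted p 7.83e-06) and TBX3 (-0.41, adjusted p 0.000238).

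KRT7 and PARD6B moved the other way with TBX2. KRT7, another keratin of simple epithelia, was at 2.53, 2.82 and 1.79 CPM with TBX2 and at 0.107 to 1.39 CPM in the controls, without overlap (1.37, SE 0.33, adjusted p 0.00382 in edgeR). PARD6B, a subunit of the PAR polarity complex, rose with TBX2 (0.71, SE 0.16, adjusted p 0.00208), TBX3 (0.56, SE 0.16, adjusted p 0.0227) and TBX5 (0.48, SE 0.18, adjusted p 0.0943). Without TBX3 replicate c the TBX3 value of PARD6B no longer passed (adjusted p 0.181), and the TBX5 call was lost in 7 of 9 such fits: TBX5 replicate a (0.189), TBX5 replicate b (0.137), TBX5 replicate c (0.267), Ctl replicate c (0.154), EV replicate a (0.112), EV replicate b (0.149) and EV replicate c (0.106). It was also lost with DESeq2 (0.169), without the filter on low counts (0.134) and against EV alone (0.115) or Ctl alone (0.241). The values there were 0.44 to 0.53, beside 0.48 in the main fit. PKP3, a desmosome plaque protein, rose with TBX5 (3.77, 4.76 and 3.91 CPM beside 2.04 to 2.65 CPM in the controls), by 0.82 in edgeR (SE 0.20, adjusted p 0.0104).

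Mesenchymal genes were more often lower than higher with TBX2, TBX3 and TBX4, although under library totals edgeR called 6 higher and 1 lower with TBX4, 0 in either direction with TBX3, 1 higher and 3 lower with TBX2, and 0 higher and 2 lower with TBX5. Those counts stand beside 17.9%, 0.225%, 6.78% and 0.597% of all tested genes with TBX4, TBX3, TBX2 and TBX5. Of 38 listed, 27 were tested. With TBX2, 4 rose and 11 fell (55.6% beside 32.6% of all tested genes, median -0.14), and with TBX3, 1 rose and 7 fell (29.6% beside 14.9%, median -0.06). With TBX4, 1 rose and 8 fell (33.3% beside 13.0%, median -0.06), of which CDH2, CALD1, CD44 and NT5E had the other sign under library totals, where the list's median was 0.20 beside 0.25 over all tested genes. With TBX5, 4 rose and 5 fell (33.3% beside 12.7%, median -0.04), of which ITGA5 and MMP14 had the other sign under library totals. Relative to the median gene, the genes named for a changed sign with TBX4 and TBX5 kept their sign. FN1, which encodes fibronectin of the matrix, went against the fall of CDH2. Its level was 34.1 to 42.5 CPM in the controls, 42.7 to 54.0 CPM with TBX2, 49.7 to 50.3 CPM with TBX4 and 49.4 to 56.2 CPM with TBX5, above every control in these 3 groups. FN1 rose by 0.41 with TBX2 (adjusted p 0.000543), 0.42 with TBX4 (0.000109) and 0.50 with TBX5 (0.000184) in edgeR, calls that held in 9 of 9 fits with a library left out, while its value with TBX3 (0.11) did not pass. FN1 was named after its values were seen, and under library totals it was called with TBX4 and not with TBX2 (0.43, adjusted p 0.188) or TBX5 (0.18, adjusted p 0.617, or 0.49 relative to the median gene), while the falls of CDH2 turned to 0.03 with TBX4.

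Several mesenchymal genes fell with more than 1 TBX. LOXL2, a lysyl oxidase that crosslinks collagen and is known to stabilise SNAI1, was at 25.8, 19.8 and 21.8 CPM with TBX2, below every control, and fell with TBX2 (-0.57, adjusted p 7.86e-05), TBX3 (-0.31, adjusted p 0.0182), TBX4 (-0.47, adjusted p 0.000258) and TBX5 (-0.37, adjusted p 0.0117) in edgeR. The TBX3 call was lost without TBX3 replicate c (0.183). VCAN, which encodes the matrix proteoglycan versican, was at 11.1, 13.1 and 13.5 CPM with TBX2 and at 20.9 to 24.2 CPM in the controls (-0.86, SE 0.09, adjusted p 4.2e-07), and with TBX3 it fell by 0.31 (adjusted p 0.0183, lost without TBX3 replicate c at 0.114 and against Ctl alone at 0.143). AXL, a receptor tyrosine kinase linked to the mesenchymal state, was at 507 to 576 CPM in the controls and at 303, 302 and 285 CPM with TBX2, and it fell by 0.87, 0.54, 0.61 and 0.65 on the log2 scale with TBX2, TBX3, TBX4 and TBX5. DDR2, a collagen receptor, rose with TBX2 (4.82, 7.24 and 6.01 CPM beside 2.57 to 4.23 CPM in the controls; 0.87, SE 0.18, adjusted p 0.000774).

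**Figure D5:**
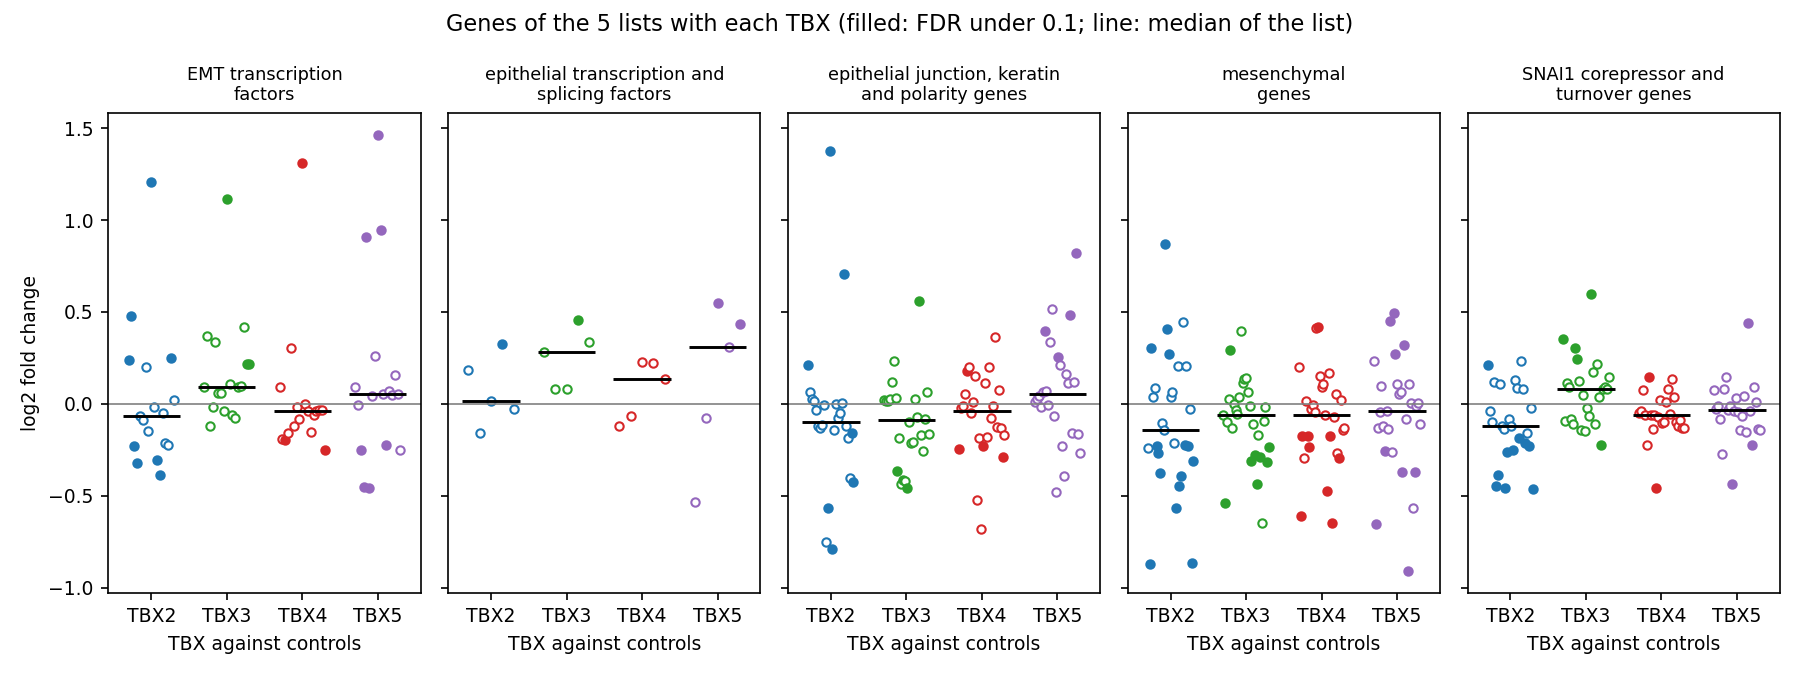
Log2 fold changes (vertical axis) of the tested genes of the 5 lists with each TBX against the 6 controls, filled where edgeR called the gene at a false-discovery rate of 0.1, with a line at the list's median. Mesenchymal genes have 11 lower and 4 higher with TBX2, and medians of all lists lie between -0.14 and 0.31. Under library totals the median of all genes moves to 0.25 with TBX4 and -0.31 with TBX5, and KRT8 changes sign with both. Relative to these medians KRT8 is -0.22 and 0.24.

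Genes that act on SNAI1 were read from a list of 25 corepressor and turnover genes, of which 24 were matched and tested. With TBX2, 1 rose (AJUBA) and 9 fell (41.7% beside 32.6%, median -0.12). Those that fell included KDM1A, the demethylase that SNAI1 recruits, GSK3B, a kinase that marks SNAI1 for degradation, and the ubiquitin ligase subunit FBXL14. The others that fell were SIN3A, WTIP, GSK3A, FBXL5, PAK1 and PSMD14. With TBX3, 4 rose and 1 fell (20.8% beside 14.9%, median 0.08), led by the Hippo pathway kinase LATS2 (32.8, 34.1 and 35.1 CPM beside 20.3 to 24.3 CPM in the controls), which rose by 0.60 in edgeR (SE 0.07, adjusted p 4.91e-06). LATS2 also differed directly between TBX3 and TBX2, TBX4 and TBX5 (adjusted p of 0.00123, 0.000138 and 0.000101). With TBX4, 1 rose and 1 fell (8.33% beside 13.0%, median -0.06), and with TBX5, 1 rose and 2 fell (12.5% beside 12.7%, median -0.03). Under library totals edgeR called 0 of the 24 with TBX2, TBX3 or TBX5, beside 6.78%, 0.225% and 0.597% of all tested genes, and 1 higher with TBX4, beside 17.9%. In EV against Ctl, edgeR called 0 of these 24.

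In EV against Ctl, 1 of 17 EMT factors was lower (ID2), and there were 0 called in edgeR among the 24 junction and 5 epithelial factor genes, beside 0.385% of all tested genes. Under library totals none of the named genes of the lists was called with TBX3 (adjusted p 0.999 for KRT8, KRT18, PARD6B, AXL, VCAN, LOXL2 and LATS2), although the values stayed large, such as -0.62 for AXL beside -0.54 with TMM, -0.55 for KRT8 beside -0.45 and 0.52 for LATS2 beside 0.60. With TBX5, SOX4 (0.236), ID2 (0.267), PKP3 (0.33), PARD6B (0.682), GRHL1 (0.59) and LOXL2 (0.234) were not called there, where LOXL2 was -0.67 beside -0.37 with TMM and the other 5 were 0.17 to 0.64 beside 0.48 to 0.95. With TBX4, AXL (-0.35, adjusted p 0.12) and LOXL2 (-0.21, adjusted p 0.328) were not called there, nor was ID2 between EV and Ctl (0.691). Relative to the median of all tested genes, every one of these kept its sign.

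The genes whose pattern was most like that of SNAI1 were found by Pearson's r of log2 CPM over the 18 libraries, which fall in 6 groups and share their depth with each other gene, so that r is a description. DCAF4L1 (r 0.877), ZNF222 (0.862), PTHLH (0.861), ZNF790 (0.86) and the histone pseudogene H3C9P (0.853) were highest of all tested genes, and TXNRD3 (-0.888), MPDZ (-0.868) and ARHGEF12 (-0.867) were lowest. Spearman's rho ran from 0.806 to 0.876 for the former and from -0.781 to -0.858 for the latter. DCAF4L1 had a mean of 1.10 CPM in the controls and of 3.39, 2.54, 5.22 and 4.08 CPM with TBX2, TBX3, TBX4 and TBX5. H3C9P was nearly absent from the controls (0.17 CPM) and stood at 4.99, 2.72, 4.36 and 4.64 CPM in the same order.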

How the data were processed

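The values are counts that the authors deposited: paired-end reads aligned to GRCh37 with STAR 2.3.0 and assigned to genes with featureCounts at its default settings, which ignore the strand. Tested were the 15576 genes whose counts exceeded 5 in 10 or more of the 18 libraries. Differences came from the quasi-likelihood test of edgeR 4.0.16 in R 4.3.3 with TMM factors and Benjamini-Hochberg adjustment over all tested genes, at a false-discovery rate of 0.1. DESeq2 1.42.0 served as an alternative. Each TBX was fitted with the 6 controls, EV with Ctl, and the 6 pairs of TBX groups in 1 fit of all libraries.

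The members and lists were chosen with earlier results of these data known. Named were all 10 members and, of each list, the counts in each direction and at most 6 other genes called in a TBX comparison with a log2 fold change of 0.5 or more in size, with the 5 highest and 3 lowest correlations with SNAI1. FN1 and genes given without a value were named after their values were seen. The lists are EMT transcription factors, epithelial transcription and splicing factors, epithelial junction, keratin and polarity genes, mesenchymal genes, SNAI1 corepressor and turnover genes, and markers of lung epithelium, fibroblasts, endothelium and leukocytes. Levels per kilobase used the canonical transcript of GENCODE on GRCh37, and promoters came from RefSeq. Python 3.11.15 with pandas 2.3.3, numpy 2.4.6 and matplotlib 3.10.9 prepared tables and figures.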

Additional observations from a re-analysis of the deposited data

How the results depend on the processing

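Log2 fold changes of the tested members were recomputed 810 times, and 691 kept both their direction and their side of the threshold. A further 46 took another sign where neither value passed. With a library left out, 26 lost a call and 3 gained one. Under the other alternatives 34 lost and 8 gained one, and 2 called values took the other sign under library totals, ZEB2 and CDH2 with TBX4 (0.018 and 0.0261, or -0.23 and -0.23 relative to the median gene). Between TBX groups, 286 values of called members gave 215 on the same side, 69 losses and 2 changes of sign. The 14 genes of the lists that met the rule for naming gave 1325 values, with 1231 on the same side, 77 losses and 15 gains. The other 2 were changes of sign, KRT8 with TBX4 and TBX5 under library totals (-0.22 and 0.24 relative to the median gene).

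The number of the 7 members called in edgeR was 5 with TBX2, 4 with TBX3, 4 with TBX4, 2 with TBX5, 0 for EV against Ctl, and 2, 3, 2, 2, 2 and 0 for TBX2 against TBX3, TBX4 and TBX5, TBX3 against TBX4 and TBX5, and TBX4 against TBX5. Under library totals it was 1 with TBX2, 0 with TBX3, 1 with TBX4, 0 with TBX5, 2 for TBX4 against TBX5 and 0 for TBX2 against TBX3, 0 for TBX2 against TBX4, 0 for TBX2 against TBX5, 0 for TBX3 against TBX4 and 0 for TBX3 against TBX5. Without a filter on low counts it was 2 with TBX3, 4 with TBX5, 1 for TBX2 against TBX3 and 0 for TBX2 against TBX5. With at least 10 counts in every library, which leaves 11661 genes and not SNAI1, it was 1 with TBX5. With the top gene share as a covariate, chosen after seeing the data, it was 1 with TBX4 and 0 for TBX2 against TBX4. Against EV controls alone it was 3 with TBX2 and 0 with TBX5, and against Ctl controls alone 2 with TBX3. DESeq2 gave 2 with TBX3, 1 with TBX5, 1 for TBX2 against TBX3 and 1 for TBX2 against TBX5, and DESeq2 size factors in edgeR gave 1 for TBX2 against TBX5. At a false-discovery rate of 0.05 it was 1 with TBX5, 1 for TBX2 against TBX3, 0 for TBX2 against TBX4, 0 for TBX2 against TBX5 and 1 for TBX3 against TBX5. Not every move is listed here. Against EV alone, SNAI1 with TBX3 (adjusted p 0.222 in edgeR) and ZEB2 with TBX4 (0.146) were also lost. At a false-discovery rate of 0.05, TJP1 with TBX2 (0.0753) and ZEB2 with TBX3 (0.0645) were also lost. With the top gene share in the fit of TBX5, ZEB2 and TJP1 were gained and CDH2 was lost. The cause of these moves was not tested.

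With a library left out, the count ran from 2 to 5 with TBX2, 1 to 4 with TBX3, 3 to 4 with TBX4, 0 to 3 with TBX5 and 0 to 0 for EV against Ctl. Between TBX groups it ran from 0 to 2 for TBX2 against TBX3, 1 to 3 for TBX2 against TBX4, 0 to 2 for TBX2 against TBX5, 2 to 4 for TBX3 against TBX4, 1 to 2 for TBX3 against TBX5 and 0 to 0 for TBX4 against TBX5.

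The libraries share a replicate letter only. Deviations from the group means correlated at a mean r of 0.00043 over 45 pairs of libraries with the same letter (-0.101 to 0.16) and -0.000185 for other letters. With the letter as a block, the count for TBX2 against TBX5 was 1 (ZEB2 was lost, 0.112), TJP1 with TBX2 was no longer called (adjusted p 0.115 in edgeR) and ZEB2 with TBX5 was called (0.0938). Of the named list genes, ID2 between EV and Ctl (0.114) and PARD6B with TBX5 (0.127) were no longer called.

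Among the 7 tested members, depth limits SNAI1 most, with 2 to 25 counts per library, and it leaves CDH1, GRHL2 and SNAI2 at or near the floor of 3 counts. True TWIST1 differences inside its 95% interval with TBX2 remain compatible with the data.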

Other observations

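Some listed genes were too rare to be tested but differed in their counts, and they were named after their values were seen. MARVELD2, which encodes tricellulin of the tight junction, had 15, 26 and 21 counts with TBX4 and at most 5 in any other library (adjusted p 1.16e-11 in edgeR without the filter). SNAI3, a further Snail family member, had 3 to 9 counts in the controls, 0, 1 and 0 with TBX2 (0.0044) and 2, 3 and 0 with TBX4 (0.0756). FAP, a protease of activated fibroblasts, had 4 to 8 counts with TBX2 and 0 or 1 in the controls (6.17e-05). ELF3, an epithelial ETS factor, had 2 to 5 counts with TBX5 and 0 or 1 in the controls (0.0103). CDH3, which encodes P-cadherin, had 1 to 5 counts with TBX2 (0.0265), 1 to 6 with TBX3 (0.0884) and 0 or 1 in the controls, CNN1 5 or 6 with TBX3 (0.0273) and 0 to 3 in the controls, and COL1A2 0 to 2 with TBX2 (0.0956) and 0 in all controls. These 7 were all that passed among the 41 untested genes of the lists. Among the genes removed by the filter, edgeR called 4 of 39 listed beside 4.93% of all in the TBX2 fit, 2 of 37 beside 0.46% for TBX3, 2 of 40 beside 1.94% for TBX4 and 1 of 36 beside 0.907% for TBX5. The lists as such were not tested against these shares.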
